A study of Homo sapiens with 6 samples.

Results

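The zinc finger genes of human chromosome 19 are described here: genes whose symbol is ZNF followed by a number and at most 1 letter and whose locus lies on chromosome 19. By this rule 259 of the 60640 gene identifiers in the expression tables were members, 242 of them protein coding and 17 pseudogenes. The rule uses no expression value, but the family was chosen with earlier results of these data known. The study compared cells of MOLT-4, a line established from a human T-cell leukemia (T-ALL), with and without an intact IKZF1, the gene of the DNA binding protein IKAROS. Polyadenylated RNA was sequenced from 3 wild type libraries, which are the control of the CRISPR knockout, and from 3 IK-KO libraries, in which IKZF1 was targeted with CRISPR-Cas. Both groups were grown in RPMI1640 with fetal bovine serum, with no further treatment named. Edited and control cells were both purchased. The study's western blot covers more than 1 knockout clone, and the labels name no clone. Differences between clones therefore cannot be told apart from the knockout. No source says whether the replicates were separate cultures, so the p-values measure only the spread between these libraries, which may be technical.

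Proteins of this family bind DNA through a run of C2H2 fingers, each a short loop in which a pair of cysteines and a pair of histidines hold a zinc ion. Many also carry a KRAB domain, which binds the corepressor TRIM28, and TRIM28 brings the histone methyltransferase SETDB1 and heterochromatin proteins to the bound site, often a retrotransposon. The genes arose largely by tandem duplication, so chromosome 19 holds them in long clusters of neighbours with similar sequence. For the same reason fragments of close paralogs can be divided wrongly between them, and every value below carries that uncertainty.

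Before the members, the labels and the cell type were checked. IKZF1 RNA was not lost in the libraries labelled IK-KO: it had 134, 124 and 104.5 FPKM (mapped fragments scaled to transcript length and to library size) in wild type replicates 1 to 3 and 206.7, 259.6 and 207.4 FPKM in IK-KO replicates 1 to 3, a rise of 0.89 on the log2 scale (SE 0.12, adjusted p = 0.00295 by limma). The RNA level therefore does not check the knockout at the protein. The study's methods name PCR and western blot as its checks of the edited cells, which were not analysed here, and the group is named by its label. Of 13 T-lineage markers, 10 were at 1 FPKM or more in all 6 libraries. All 13 together summed to 1340 to 1403 FPKM in wild type and 1405 to 1572 FPKM in IK-KO, with CD3D, CD3E and LCK the most abundant. Single markers moved in both directions. CD2 had 58.9 to 63.7 FPKM in wild type and 5.0 to 5.4 FPKM in IK-KO, and CD28 had 5.5 to 6.9 and 0.17 to 0.35 FPKM. CD4, CD7, CD8A, CD5 and TAL1 were also lower in IK-KO without overlap. CD3D, CD3G, CD1A and PTCRA were higher without overlap, and the groups overlapped for CD3E and LCK. The myeloid, erythroid and fibroblast or epithelial markers (5, 3 and 4 genes) all stayed under 1 FPKM, with HBB, ALAS2 and EPCAM at 0. Of the B-cell markers reported, MS4A1 and PAX5 stayed under 0.1 FPKM, whereas CD79A had 0.728 to 1.83 FPKM in wild type and 0.125 to 0.687 FPKM in IK-KO and CD79B had 0.741 to 1.43 and 0.720 to 0.756 FPKM. The part of these low levels in the members' values was not tested. In RNA from whole cultures, fewer cells with a transcript and less transcript per cell cannot be told apart. The libraries were of similar depth, from 0.905 to 1.09 relative to the mean of the 6 libraries, as estimated from the width of the confidence bounds.

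The sequence that defines the family is shown first for a pair of members on which the results turn, ZNF792 and ZNF627. Each line is 1 finger, read from the coding sequence on GRCh38 in the direction of the gene, with the codons of the pair of cysteines and the pair of histidines in capitals. The ZNF792 fingers lie at chr19:34958943-34959005, chr19:34958859-34958921 and chr19:34958775-34958837 on the minus strand and are consecutive, among 12 in the gene. The ZNF627 fingers lie at chr19:11617008-11617070, chr19:11617092-11617154 and chr19:11617176-11617238 on the plus strand, among 11.
ZNF792 finger A: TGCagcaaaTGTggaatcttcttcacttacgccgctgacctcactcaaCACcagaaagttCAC
ZNF792 finger B: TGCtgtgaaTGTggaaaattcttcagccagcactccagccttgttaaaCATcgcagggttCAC
ZNF792 finger C: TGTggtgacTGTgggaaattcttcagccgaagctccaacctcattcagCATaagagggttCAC
ZNF627 finger A: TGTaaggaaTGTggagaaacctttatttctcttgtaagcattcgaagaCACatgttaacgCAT
ZNF627 finger B: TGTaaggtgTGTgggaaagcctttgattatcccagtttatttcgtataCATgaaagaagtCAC
ZNF627 finger C: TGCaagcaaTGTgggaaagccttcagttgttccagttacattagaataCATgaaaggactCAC
The capitals recur at the same places in every line, while the bases between them, which include the codons that contact DNA, differ from finger to finger. Searched in the same way (Cys, 2 to 4 residues, Cys, 12 residues, His, 3 to 5 residues, His), the 242 protein-coding members held a median of 12 finger matches, from 1 in ZNF428 to 36 in ZNF208.

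The family was broadly expressed at modest levels. Of the 259 members, 43 had a mean of at least 10 FPKM over the 6 libraries, 77 had 5 to under 10 FPKM, 88 had 1 to under 5 FPKM, and 51 had under 1 FPKM. All 6 libraries held 200 members at 1 FPKM or more. At the other end, 23 members were under 0.1 FPKM in every library, and 6 of those (ZNF861P, ZNF729, ZNF536, ZNF229, ZNF541 and ZNF471) were listed at 0 throughout. ZNF536, a factor best known from the nervous system, was thus listed at 0 in both groups. The tested members had a median level of 5.91 FPKM, against 11.7 FPKM over all 12652 genes tested. FPKM is scaled for transcript length, so these levels can be set side by side.

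The highest levels belonged to members with unlike structures. ZNF428, which has a single finger match, led with 68.2, 67.5 and 81.4 FPKM in wild type replicates 1 to 3 and 96.3, 101 and 88.8 FPKM in IK-KO replicates 1 to 3. Next came ZNF544, with 57.5, 40.5 and 35.5 FPKM in wild type and 50.2, 50.2 and 43.0 FPKM in IK-KO, groups that overlapped. ZNF146, a small protein made almost wholly of fingers, had 47.7, 43.1 and 36.5 FPKM in wild type and 50.2, 44.2 and 45.9 FPKM in IK-KO, and these overlapped as well. The order of ZNF544 and ZNF146 was within the spread of the libraries, whereas ZNF428 stood above both in every library. Across the 242 protein-coding members the number of finger matches and the mean level had a Spearman's rho of -0.108, a description over genes that share the same 6 libraries.

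**Figure D1:**
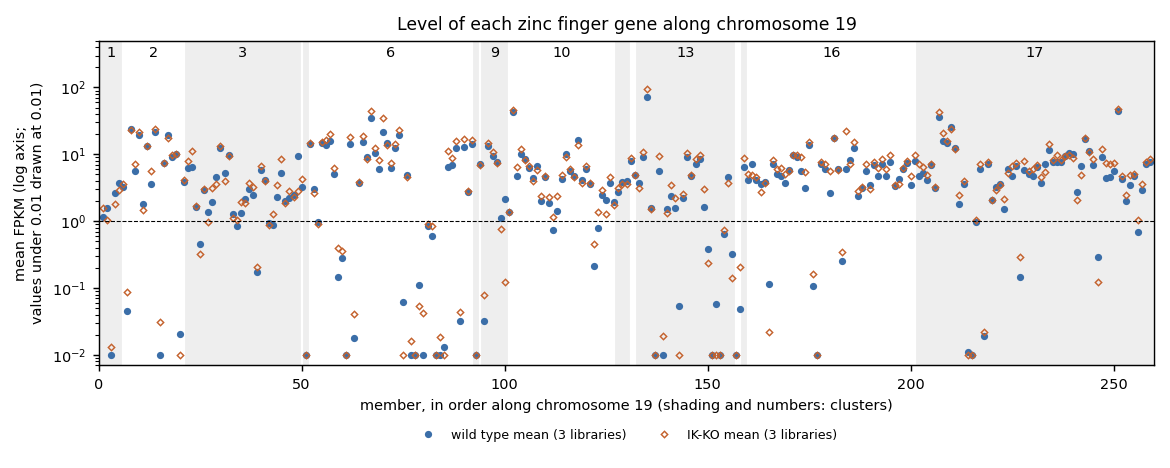
Mean FPKM (log axis) of each of the 259 members in wild type (filled circles) and IK-KO (open diamonds), 3 libraries each, in order along chromosome 19, with clusters shaded and the larger ones numbered. Most members lie between 1 and 10 FPKM, and of the members under the line at 1 FPKM clusters 6 and 13 hold 16 and 9.

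Summed over the family, RNA was higher in every IK-KO library than in any wild type library. The summed level was 1631, 1618 and 1489 FPKM in wild type replicates 1 to 3 and 1819, 1772 and 1798 FPKM in IK-KO replicates 1 to 3, which is 1579 ± 78.5 and 1796 ± 23.5 FPKM (SD, n = 3 each). As a share of all FPKM this was 0.213% to 0.229% in wild type and 0.241% to 0.251% in IK-KO. The groups did not overlap, and wild type replicate 3 was the lowest library. The number of members at 10 FPKM or more was higher too, at 49, 48 and 49 in the IK-KO libraries against 43, 42 and 40 in the wild type libraries, while those at 1 FPKM or more were nearly as many in both (206 to 208 and 208 to 210). Single genes weigh on these sums: ZNF28, named here after its values were seen, had 52.4 FPKM in IK-KO replicate 3 and 5.74 to 7.02 FPKM in the other libraries.

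Gene by gene, the shift was small and mostly upward. Changes are given as the difference of the mean log2(FPKM + 1), IK-KO minus wild type, a scale that understates the change of weakly expressed genes, and a gene is called when its limma adjusted p over all 12652 genes with a mean of at least 1 FPKM is under 0.05. Of the 259 members 208 passed that level filter. Their median change was 0.13 (quartiles -0.04 and 0.29), against 0.02 over all genes tested, and 145 of them (69.7%) had a positive change, against 52.7% of all genes tested. The other tested genes of chromosome 19, 752 in number, had a median of 0.02, with 54.0% positive. The 205 tested ZNF genes of other chromosomes had a median of 0.08, with 64.4% positive. Without wild type replicate 3 the members' median fell to 0.07.

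Few of these shifts passed the test. Limma called 25 of the 208 tested members (12%), beside 19.9% of all genes tested, so the family gave no excess of calls. The calls were uneven in direction, with 21 members higher in IK-KO (10.1%, beside 10.1% of all genes tested) and 4 lower (1.92%, beside 9.75%). The ZNF genes of other chromosomes gave 27 higher and 3 lower among 205, and the other genes of chromosome 19 gave 61 in each direction among 752. At an unadjusted p under 0.05 there were 51 members, beside 33.4% of all genes. Groups did not overlap for 71 tested members (34.1%, beside 39% of all genes), 63 of them higher in IK-KO and 8 lower. Only ZNF791 and ZNF792, both lower, were called with at least a 2-fold difference on the log2(FPKM + 1) scale, a pair beside 3.19% of all genes tested. The change of ZNF791 was -0.88, under 2-fold, without wild type replicate 3. ZNF792 passed the level filter only through its wild type libraries, so the filter fixed its direction. The 21 that rose did so by 1.25 to 1.76 times in mean FPKM, with a median of 1.51.

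The number of calls rested on all 6 libraries. It was 10, 13 and 16 without wild type replicate 1, 2 or 3 and 12, 5 and 8 without IK-KO replicate 1, 2 or 3, of which 9, 11, 16, 9, 5 and 7 were among the 25. The background fell too, to between 13.4% and 15.8% of all genes tested. None of the 25 changed sign in any of 17 alternatives. Their groups did not overlap, so a reversal was possible only where values were rescaled or GC content and length trends were removed. Most called members lost their call in 2 (ZNF628) to 15 (ZNF610) of the alternatives. Only ZNF443, ZNF627, ZNF738 and ZNF792 kept theirs in all alternatives in which they were tested. Of these 4, ZNF792 was not tested at the 3 FPKM filter and passed the main filter only through its wild type libraries. Lower and upper 95% confidence bounds that the tables give for each library, which cover the estimation error within a library, did not overlap between the groups for 5 called members, the same 4 and ZNF135. Read-sharing with overlapping genes touches most members, since 189 of 259 loci overlap another annotated gene and the strand setting is not stated. Of the 154 tested members that overlap another gene 21 were called, and of the 54 that overlap none 4 were called (ZNF738, ZNF792, ZNF880 and ZNF628).

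**Figure D2:**
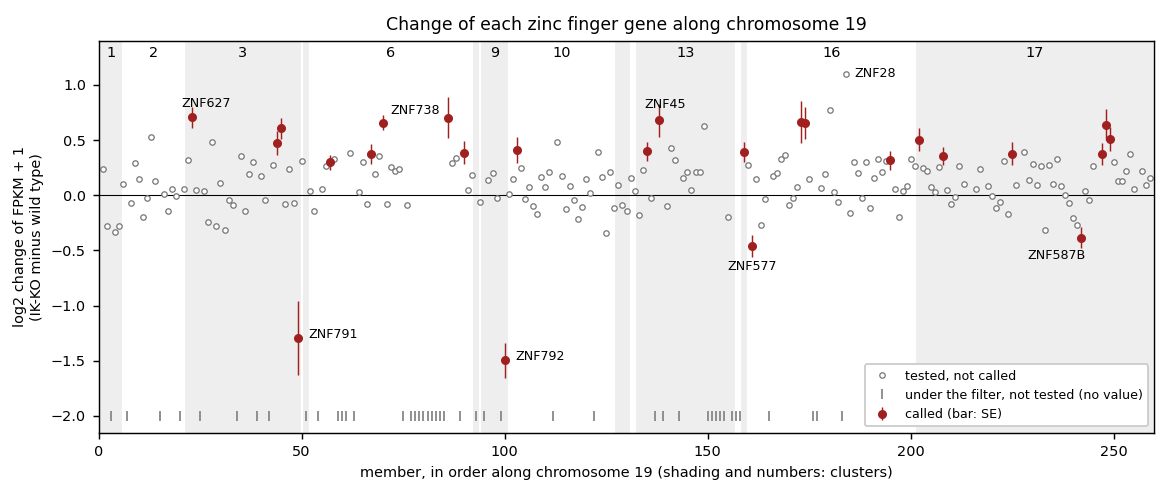
Change in log2(FPKM + 1), IK-KO minus wild type, of the 208 tested members in order along chromosome 19, with the 25 called members filled (bar: SE) and the 51 members under the level filter marked at the bottom without a value. Called rises are scattered over clusters 3 to 17 at 0.30 to 0.71, and ZNF791 and ZNF792 stand alone below -1.

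Along the chromosome the members fell into 17 clusters when a new cluster was begun wherever the next member started more than 1 Mb past the last. The 7 clusters with at least 10 members held 236 of the members and 23 of the calls, and the median change was positive in all 7. In 6 clusters with tested members none was called, and these held 24 tested members, of which 2 had an unadjusted p under 0.05 by limma. Neighbouring members had little movement in common. Over 207 pairs of adjacent tested members, the changes had a Spearman's rho of 0.08, a description over genes that share libraries and, in part, fragments.

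**Figure D3:**
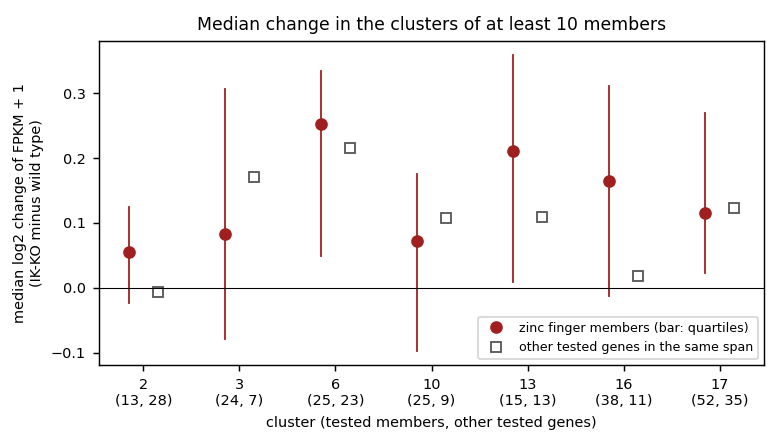
Median change in log2(FPKM + 1), IK-KO minus wild type, of the tested members in each of the 7 clusters with at least 10 members (circles, bar: quartiles over members) and of the other tested genes inside the same span (squares), with both numbers under the axis. The circles run from 0.05 in cluster 2 to 0.25 in cluster 6, and the squares are of similar size in clusters 6, 10 and 17. The squares include zinc finger genes with other symbols, for example in clusters 10 and 17.

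At the start of the chromosome no member was called. Cluster 1 (ZNF554 to ZNF77, chr19:2819868-2944971) had 4 tested members of 5, none called, with a median of -0.28. Cluster 2 (ZNF557 to ZNF846, chr19:7069703-9793180) had 13 tested members of 16, none called by limma and 2 at an unadjusted p under 0.05, with a median of 0.05. Its ZNF558 had a log2 change of 0.29 (95% confidence interval 0.03 to 0.55, limma, adjusted p = 0.113). The 28 other genes tested in the span of cluster 2 had a median of -0.01 and 5 calls.

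Cluster 3 (ZNF653 to ZNF791, chr19:11483427-12640098) held 28 members, 24 of them tested, and moved in both directions, with 3 called higher, 1 lower and 14 positive changes. ZNF627 (chr19:11559374-11619161, plus strand) had 6.21, 6.21 and 6.67 FPKM in wild type replicates 1 to 3 and 12.3, 10.5 and 10.3 FPKM in IK-KO replicates 1 to 3. All 3 IK-KO libraries lay well above all 3 wild type libraries, 1.73 times in the mean, and the rise of 0.71 in log2(FPKM + 1) was the largest called in the family (SE 0.10, adjusted p = 0.00306 by limma). ZNF443 (chr19:12429706-12441021, minus strand) had 5.30, 5.58 and 5.13 FPKM in wild type and 8.80, 7.95 and 9.22 FPKM in IK-KO, again with no overlap (log2 change 0.61, SE 0.09, limma, adjusted p = 0.00476). ZNF799, its neighbour and close relative, had 2.39, 2.27 and 2.14 FPKM in wild type and 3.48, 3.54 and 3.59 FPKM in IK-KO (log2 change 0.47, limma, adjusted p = 0.0242). Both overlap the unnamed locus AC008758.5, and how the estimation divided fragments among them was not tested.

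At the far end of cluster 3, ZNF791 (chr19:12610918-12633840, plus strand) fell. It had 7.38, 4.99 and 15.6 FPKM in wild type replicates 1 to 3 and 2.68, 2.84 and 3.01 FPKM in IK-KO replicates 1 to 3. The groups did not overlap, but the wild type libraries were spread from 4.99 to 15.6 FPKM and their confidence bounds were wide, 0.0641 to 14.7 FPKM in replicate 1, 0 to 10.6 FPKM in replicate 2 and 2.95 to 28.2 FPKM in replicate 3. The log2 change was -1.29 (SE 0.34, limma, adjusted p = 0.0362), and the call was lost without wild type replicate 1 and without any 1 of the IK-KO replicates. Without wild type replicate 3 the call stayed, but the change of ZNF791 was -0.88. ZNF490, which overlaps it on the other strand, had 2.45 ± 0.239 FPKM in wild type and 2.27 ± 0.124 FPKM in IK-KO (SD, n = 3 each), a log2 change of -0.07 (limma, adjusted p = 0.732).

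Cluster 6 (ZNF101 to ZNF726, chr19:19668796-23945159), which spans 4.28 Mb, had the most weakly expressed members and, of the clusters with at least 10 members, the highest median change. Only 25 of its 41 members (61.0%) passed the level filter, 5 were called, all higher, and 21 changes were positive, with a median of 0.25. The 23 other genes tested in its span had a median of 0.22, with 18 positive and 2 called, so the upward values were not limited to zinc finger genes there. Among those under the filter was ZNF208, the member with the most finger matches, at 0, 0.184 and 0 FPKM in wild type and under 0.01 FPKM in all 3 IK-KO libraries.

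Among its called members ZNF738 (chr19:21358930-21379302, plus strand) had the lowest adjusted p of any rise in the family. Wild type replicates 1 to 3 had 22.1, 20.01 and 22.2 FPKM and IK-KO replicates 1 to 3 had 34.9, 35.1 and 33.1 FPKM. Both groups were tight and far apart, 1.60 times in the mean, and no other annotated gene overlaps the locus (log2 change 0.66, SE 0.07, limma, adjusted p = 0.000793). ZNF730 had 6.24, 8.16 and 4.99 FPKM in wild type and 13.4, 9.53 and 10.3 FPKM in IK-KO, a larger change of 0.70 but with more spread (SE 0.18, limma, adjusted p = 0.0357). ZNF714, among the most abundant members, had 37.3, 36.5 and 30.03 FPKM in wild type and 43.1, 44.9 and 46.6 FPKM in IK-KO (log2 change 0.37, limma, adjusted p = 0.0278). ZNF675 was called as well, from 12.8 ± 1.44 to 16.9 ± 1.61 FPKM (SD, n = 3 each). ZNF730 and ZNF675 each lost the call in 8 of 17 alternatives.

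The cluster also holds a pair of members known for binding retrotransposons, ZNF91, which represses SVA elements, and ZNF93, which represses a group of LINE-1 elements. ZNF93 had 15.4, 16.1 and 16.4 FPKM in wild type and 21.1, 19.5 and 19.2 FPKM in IK-KO, a small rise with no overlap (log2 change 0.30, limma, adjusted p = 0.0219). ZNF91, with 31 finger matches, had 14.4, 12.1 and 10.9 FPKM in wild type and 15.6, 16.2 and 15.8 FPKM in IK-KO. Its groups did not overlap either, and its change of 0.33 (95% confidence interval 0.09 to 0.58) did not pass the test (limma, adjusted p = 0.0623), though it did after upper quartile or size factor scaling (limma, adjusted p = 0.0433 and 0.0447). ZNF91 also passed after removal of GC content and length trends and without wild type replicate 1 (limma, adjusted p = 0.0266 and 0.0271), and in no other alternative. ZNF43, from the same group of paralogs, had 19.6 ± 1.79 and 23.3 ± 2.26 FPKM (SD, n = 3 each), groups that overlapped (limma, adjusted p = 0.141). It passed only after removal of GC content and length trends (limma, adjusted p = 0.0369).

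Between clusters 3 and 6 lie ZNF333, with a change of 0.31 that was not called (limma, adjusted p = 0.15), and the pseudogene ZNF861P, listed at 0. Between clusters 6 and 9 only ZNF507 was tested, and its 7.23 ± 0.589 FPKM in wild type and 6.87 ± 0.362 FPKM in IK-KO (SD, n = 3 each) were not called apart (limma, adjusted p = 0.697). Cluster 9 (ZNF807P to ZNF792, chr19:34542462-34964229) has 6 members, 4 of them tested, and 1 call. That call, ZNF792 (chr19:34956354-34964229, minus strand), was the largest change of the family. Wild type replicates 1 to 3 had 2.15, 2.33 and 2.03 FPKM, and IK-KO replicates 1 to 3 had 0.0661, 0.140 and 0.165 FPKM. The transcript was near 0 in every IK-KO library, with confidence bounds of 0 to 0.146, 0.0471 to 0.233 and 0.0689 to 0.260 FPKM, and at 1.69 FPKM or more at the lower bound of every wild type library.

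The mean of ZNF792 was 2.17 ± 0.155 FPKM in wild type and 0.124 ± 0.0512 FPKM in IK-KO (SD, n = 3 each), a ratio of 17.6 that rests on values close to 0. On the log2(FPKM + 1) scale the change was -1.50 (SE 0.16, limma, adjusted p = 0.00116). The gene passed the level filter only through its wild type libraries, so among members that passed it had to be lower in IK-KO. Its nearest tested zinc finger neighbour ZNF599 had a change of -0.03 and its nearest gene on the other side, GRAMD1A, 0.17, neither called (limma, adjusted p = 0.894 and 0.168). The locus AC008555.4 between ZNF599 and ZNF792 was called lower, from 5.93 ± 1.55 to 2.88 ± 0.605 FPKM (SD, n = 3 each, limma, adjusted p = 0.0225).

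Cluster 10 (ZNF565 to ZNF573, chr19:36182276-37817300) was the most fully expressed of the large clusters, with 25 of 27 members tested, and among the quietest in change, with 1 call and a median of 0.07. ZNF566 was that call, at 4.08, 4.65 and 5.33 FPKM in wild type and 6.11, 6.87 and 6.62 FPKM in IK-KO (log2 change 0.41, limma, adjusted p = 0.0443). ZNF146, described above for its level, had a change of 0.14 (limma, adjusted p = 0.382). ZNF382, a KRAB repressor described as a tumor suppressor in several cancers, had 6.45, 7.92 and 4.43 FPKM in wild type and 7.40, 7.82 and 4.64 FPKM in IK-KO, nearly the same range in both groups. ZNF568, whose mouse counterpart represses a placental Igf2 transcript, had 1.43 ± 0.459 FPKM in wild type and 2.35 ± 0.114 FPKM in IK-KO (SD, n = 3 each) without overlap, and it was not called (limma, adjusted p = 0.105).

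The smaller clusters 11 (ZNF546 to ZNF780A) and 12 (ZNF574 and ZNF526) had 5 tested members between them and no call, with medians of -0.09 and 0.10. Cluster 13 (ZNF575 to ZNF296, chr19:43525497-45076587) had many weakly expressed members, 9 of 24 under the filter, beside a median change of 0.21 in the 15 tested. ZNF428, the most abundant member, rose here in all 3 libraries, 1.32 times in the mean (log2 change 0.40, limma, adjusted p = 0.0193). Its lowest IK-KO library, at 88.8 FPKM, was close to its highest wild type library, at 81.4 FPKM. ZNF45 had 6.35, 6.19 and 4.09 FPKM in wild type and 9.60, 9.52 and 8.89 FPKM in IK-KO, without overlap (log2 change 0.68, limma, adjusted p = 0.0208). ZNF235 missed the call narrowly and is named for that after its values were seen, at 1.60 ± 0.274 FPKM in wild type and 3.05 ± 0.725 FPKM in IK-KO (SD, n = 3 each, limma, adjusted p = 0.0501).

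Cluster 14 (ZNF541 and ZNF114) had no tested member. ZNF473, alone in cluster 15 and known for its part in the processing of histone messenger RNA with the U7 particle, had 6.28, 7.03 and 6.05 FPKM in wild type and 8.35, 8.79 and 9.19 FPKM in IK-KO. The gap between the groups was wider than the range within either (log2 change 0.39, limma, adjusted p = 0.0234).

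Cluster 16 (ZNF175 to ZNF331, chr19:51571283-53580269) had 38 of 42 members tested, 28 of them positive, with 3 called higher and 1 lower. The neighbours ZNF610 and ZNF880 both rose. ZNF880 had 3.70, 2.90 and 2.76 FPKM in wild type and 5.61, 4.57 and 6.28 FPKM in IK-KO (log2 change 0.65, limma, adjusted p = 0.0211). ZNF610 had 6.35, 3.78 and 6.66 FPKM in wild type and 9.43, 8.18 and 10.2 FPKM in IK-KO, with 1 low wild type library and an adjusted p at the threshold (limma, 0.04997). ZNF677 was called with a smaller rise, from 7.71 ± 0.443 to 9.84 ± 0.505 FPKM (SD, n = 3 each).

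Against this, ZNF577 fell, from 7.07, 7.71 and 6.81 FPKM in wild type to 5.30, 4.50 and 5.04 FPKM in IK-KO, with no overlap (log2 change -0.46, SE 0.10, limma, adjusted p = 0.0180). Its neighbours ZNF649 (0.15) and ZNF613 (-0.27) were not called (limma, adjusted p = 0.394 and 0.315). ZNF331, an imprinted gene, had 7.93 ± 0.743 FPKM in wild type and 9.74 ± 0.890 FPKM in IK-KO (SD, n = 3 each, limma, adjusted p = 0.121). The largest positive values of the cluster belonged to a pair of uncalled genes. That of ZNF28 (1.10, SE 0.69, limma, adjusted p = 0.315) was carried by IK-KO replicate 3, whose estimate has bounds of 11.9 to 92.9 FPKM. The pseudogene ZNF137P, also chosen after its values were seen, had 2.87, 2.601 and 2.38 FPKM in wild type and 9.60, 4.36 and 3.14 FPKM in IK-KO, without overlap and with 1 library well above the others (log2 change 0.77, limma, adjusted p = 0.141). Each overlaps another member, ZNF468 and ZNF83.

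Cluster 17 (ZNF628 to ZNF446, chr19:55476617-58481230), at the end of the long arm, is the largest, with 58 members, 52 of them tested, 6 called higher and 1 lower. Its median change was 0.12, and that of the 35 other genes tested in the span was also 0.12, with 29 of them positive and 3 called. Those 35 include zinc finger genes with other symbols, such as ZSCAN18 and ZIK1. ZNF135 had 4.66, 5.19 and 3.49 FPKM in wild type and 6.71, 7.55 and 8.02 FPKM in IK-KO (log2 change 0.64, limma, adjusted p = 0.0202). ZNF329 had 5.10, 4.75 and 4.099 FPKM in wild type and 6.47, 7.44 and 7.24 FPKM in IK-KO (log2 change 0.51, limma, adjusted p = 0.0174). Neither pair of groups overlapped.

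ZNF628, at the proximal edge of the cluster, had 4.35, 5.18 and 4.94 FPKM in wild type and 6.98, 8.03 and 6.79 FPKM in IK-KO (log2 change 0.50, limma, adjusted p = 0.0170). The adjoining ZNF580 and ZNF581, whose loci overlap, had changes of 0.26 and 0.35, of which only that of ZNF581 was called (limma, adjusted p = 0.0672 and 0.0238). ZNF580 was called as well after upper quartile or size factor scaling and after removal of GC content and length trends (limma, adjusted p = 0.0392, 0.0375 and 0.0382), while ZNF581 lost its call in 6 of 17 alternatives. ZNF17 and ZNF606 were called at changes of 0.38 and 0.37 (limma, adjusted p = 0.0492 and 0.0445), and each lost its call in 13 of 17 alternatives. ZNF274, which marks the 3' ends of zinc finger genes themselves for repression, had 6.03, 5.99 and 5.09 FPKM in wild type and 8.24, 8.36 and 5.51 FPKM in IK-KO, so IK-KO replicate 3 fell within the wild type range (log2 change 0.30, 95% confidence interval -0.07 to 0.68, limma, adjusted p = 0.236).

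Close paralogs lie side by side in cluster 17. ZNF587B fell, from 6.74, 7.21 and 6.40 FPKM in wild type to 4.58, 4.99 and 5.32 FPKM in IK-KO (log2 change -0.38, limma, adjusted p = 0.0329). ZNF587B lost its call in 8 of 17 alternatives. ZNF587, next to it, had 11.3 ± 1.72 and 10.9 ± 0.752 FPKM (SD, n = 3 each), a change of -0.04. ZNF417, its close paralog and like it a repressor of endogenous retroviruses, had 7.03 ± 0.918 and 8.63 ± 0.534 FPKM, a change of 0.27 (limma, adjusted p = 0.133). Whether these differ from each other was not tested, and fragments shared among such copies make the division between them uncertain.

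**Figure D4:**
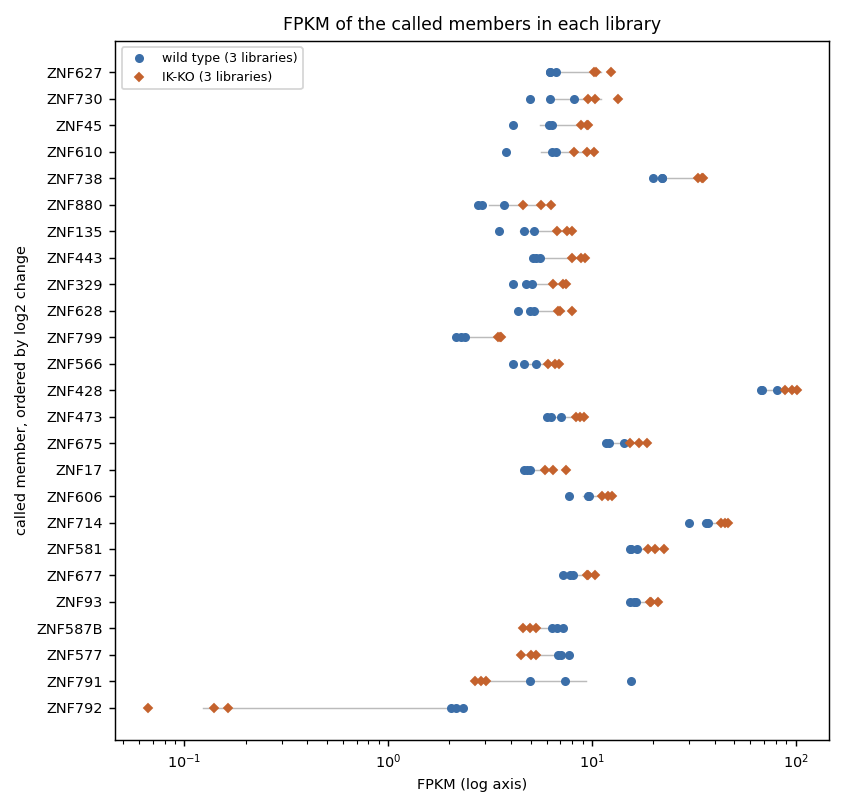
FPKM (log axis) of the 25 called members in each of the 3 wild type libraries (circles) and 3 IK-KO libraries (diamonds), ordered by log2 change, with a grey line joining the group means. No member's groups overlap, 21 lie to the right in IK-KO by less than 2-fold, and ZNF792 alone comes near 0.

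No member, tested or not, went from under 0.1 FPKM in all 3 libraries of 1 group to 1 FPKM or more in all 3 of the other. ZNF792 missed this limit because not all of its IK-KO libraries were under 0.1 FPKM. Among members under the level filter, the filter itself leaves little room for such a gene. Of those 51 members, 9 reached 1 FPKM in some library. The groups did not overlap for 6 of the 45 with a value above 0 (13.3%), beside 13% of all genes under the filter with such a value, so nothing is read from these 6, which were ZNF829, ZNF233, ZNF114, ZNF578, ZNF772 and ZNF132. Of the 17 pseudogenes 10 were under the level filter, 5 of them under 0.1 FPKM in all 6 libraries. The 7 that were tested gave no call by limma, and 1 had an unadjusted p under 0.05.

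Finger number was alike in called and tested members. The called members had a median of 12 finger matches, the same as all tested members, and over the 201 tested protein-coding members finger matches and change had a Spearman's rho of 0.03. Over the 208 tested members the wild type mean and the change also had a rho of 0.03. Both are descriptions over genes measured in the same 6 libraries.

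Promoters were read for the 212 members with a RefSeq window (GRCh38.p14, from 250 bases before to 50 after the start), which ZNF738, ZNF473 and ZNF610 lack. Those of the largest fall and of a pair of the firmest rises are shown in the direction of the gene, with GGGAA, the core of the sequence that IKAROS binds, and its reverse complement TTCCC in capitals. They lie at chr19:34964180-34964479 (minus strand), chr19:11597233-11597532 (plus strand) and chr19:12440972-12441271 (minus strand).
ZNF792 promoter: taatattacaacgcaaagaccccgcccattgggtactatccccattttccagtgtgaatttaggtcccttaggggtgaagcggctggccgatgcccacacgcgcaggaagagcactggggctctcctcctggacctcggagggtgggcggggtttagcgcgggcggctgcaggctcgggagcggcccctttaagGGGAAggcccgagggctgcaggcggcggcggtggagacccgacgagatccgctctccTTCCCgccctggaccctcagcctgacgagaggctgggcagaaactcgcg
ZNF627 promoter: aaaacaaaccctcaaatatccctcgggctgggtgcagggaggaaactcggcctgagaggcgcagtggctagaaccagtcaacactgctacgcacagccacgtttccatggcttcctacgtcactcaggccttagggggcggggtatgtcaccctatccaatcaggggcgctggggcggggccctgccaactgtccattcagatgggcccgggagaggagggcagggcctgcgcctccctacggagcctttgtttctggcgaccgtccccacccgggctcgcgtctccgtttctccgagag
ZNF443 promoter: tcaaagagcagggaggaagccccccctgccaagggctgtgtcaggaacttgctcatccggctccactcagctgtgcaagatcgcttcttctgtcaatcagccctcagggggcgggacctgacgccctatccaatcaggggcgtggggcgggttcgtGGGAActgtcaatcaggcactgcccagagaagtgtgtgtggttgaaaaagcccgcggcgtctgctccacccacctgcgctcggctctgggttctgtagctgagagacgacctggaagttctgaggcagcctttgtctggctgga
ZNF792 has the letters in 2 places, ZNF443 in 1 and ZNF627 in none, and their CpG counts are 24, 13 and 19. Only the first window of each symbol was read. That of ZNF627 lies inside its locus, and the start of that locus was not read. On both strands together the letters occurred in 70.3% of members' windows and in 64.6% of the first windows of all 27305 symbols. By call they occurred in 16 of 18 windows of members that rose and in 2 of 4 of those that fell. Member promoters held more CpG than those of all symbols, with a median of 20 against 14, and 6.6% of them had under 10 CpG against 44%. The 27305 symbols were not limited to expressed genes, whereas 183 of the 212 member windows belong to tested members. Expressed genes were not compared apart. Untested members had a median of 17 and tested members 20. A match is a run of letters and not a binding site, and IKAROS binding was not measured in these libraries.

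A list of TRIM28, SETDB1 and other heterochromatin genes, called corepressors here, moved in both directions. It also holds ZNF274, itself a member, which was not called. Of 26 corepressor genes, 25 were tested and limma called 8, with 6 higher and 2 lower and a median change of 0.16, beside 19.9% of all genes tested called, 10.1% higher and 9.75% lower. UHRF1 was left out for a failed estimate. TRIM28, the shared corepressor, had 442.8, 471.7 and 442.4 FPKM in wild type and 513.6, 492.3 and 555.5 FPKM in IK-KO, a small rise without overlap (log2 change 0.20, limma, adjusted p = 0.0466). SETDB1, the methyltransferase it brings, had 18.9 ± 0.540 and 18.9 ± 0.896 FPKM (SD, n = 3 each), a change of 0.00 with a 95% confidence interval of -0.15 to 0.16.

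Among the other methyltransferases and readers, EHMT2 rose from 62.1 ± 0.0922 to 95.2 ± 1.01 FPKM (SD, n = 3 each, log2 change 0.61, limma, adjusted p = 0.000190) and SUV39H2 by 0.37 (limma, adjusted p = 0.0217). The heterochromatin proteins CBX5 and CBX1 rose by 0.45 and 0.26 (limma, adjusted p = 0.00148 and 0.00967), and RESF1, a partner of SETDB1, by 0.32 (limma, adjusted p = 0.0365). CHD3, a remodelling ATPase that TRIM28 recruits, fell from 20.7 ± 1.02 to 12.5 ± 0.877 FPKM (SD, n = 3 each, limma, adjusted p = 0.00135). DNMT1, the maintenance DNA methyltransferase, fell from 80.2 ± 1.54 to 64.7 ± 4.59 FPKM (limma, adjusted p = 0.0143). The list's calls ranged from 4 to 9 when 1 library was left out, with 4 without wild type replicate 1.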

How the data were processed

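Expression was measured by RNA-seq in 3 wild type and 3 IK-KO libraries. The deposited tables, 1 per library, hold gene-level FPKM with confidence bounds and an estimation status, in the layout Cufflinks writes, and the authors scaled FPKM for transcript length and depth. The submitters' processing notes name STAR 2.6.1c, Cufflinks 2.2.1, HOMER 4.10 and hg38, with no role; the annotation and strand setting are not given in the sources used here. FPKM holds no counts, so no count model was used. All 49727 single-row identifiers at their GENCODE 44 version lie at the GRCh38 position, and coordinates count from 1.

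Rows of 1 identifier were summed (110 identifiers), and 29 identifiers with a failed estimate in any library were left out. No member was in either set. log2(FPKM + 1) was fitted with limma 3.58.1 in R 4.3.3 (lmFit, eBayes with trend, two-sided, Benjamini-Hochberg) over 12652 genes with a mean of at least 1 FPKM over the 6 libraries, after the fit was tested on simulated data. The study's test at p under 0.05 with a 2-fold limit was replaced by limma because each group has 3 libraries. Finger matches were counted in translated GENCODE 44 canonical coding sequences, and promoter windows are RefSeq's.

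The members, gene lists and marker lists were chosen with earlier results of these data known, so lists are described by counts and medians only. Named were the largest called rises and falls (10 at most in each direction), the top called member per cluster, the 5 most abundant tested members, 15 members fixed by name, members switched between groups, the corepressors, and the called or most changed zinc finger gene of other symbol. Further called members were named to account for every call and, like any other gene, after their values were seen. One marker gene is not reported here.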

Additional observations from a re-analysis of the deposited data

How the results depend on the processing

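Pseudocounts of 0.1 and 0.5, filters at 0.5 and 3 FPKM, upper quartile and size factor scaling, no mean-variance trend, failed estimates kept, and, added after seeing the data, removal of GC content and length trends gave 22 to 27 called members. With no filter on low values 11 were called (9 higher, 2 lower, beside 7.37% of all genes), the median change of 253 members was 0.0821 and 5 corepressors were called. Leaving out 1 library gave 5 to 16 calls, 4 to 13 higher and 1 to 3 lower, a median change of 0.07 to 0.16, and 4 to 9 corepressors called. Over all genes the calls were 2515, against 2011 with no filter and 1692 without wild type replicate 1. IKZF1 stayed called throughout. A gap of 2 Mb gave 8 clusters in place of 17. Subtracting the median change of the other genes of chromosome 19 left 143 of 208 members positive. The causes were not tested.

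With the replicate number as a block, 10 members were called (8 higher, 2 lower), 9 of them among the 25 and the other ZNF580 (limma, adjusted p = 0.0464), and 6 corepressors. The deviations of same-numbered libraries correlated at 0.067, 0.025 and 0.0055, so they had little in common. These values cannot show whether same-numbered libraries were handled together, which no source states. Without counts, depth enters only through the confidence bounds, whose median half-width over members was 18.4% to 23.0% of the value per library; changes of the size seen in most members are of that order.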

Other observations

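Zinc finger genes of chromosome 19 with other symbols (ZFP, ZSCAN, ZIK1, the ZIM genes and PEG3) numbered 17, of which 8 were tested, with a median change of 0.23. ZSCAN18, which overlaps ZNF135, was the 1 call, from 17.1 ± 1.44 to 24.4 ± 1.07 FPKM (SD, n = 3 each, log2 change 0.49, limma, adjusted p = 0.00596), while the largest change, 0.52 in ZIK1, was not called (limma, adjusted p = 0.0691). Of 19 antisense, readthrough and other loci named after ZNF genes, 7 were tested and ZNF528-AS1 was called, higher by 0.66 (limma, adjusted p = 0.00798).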
